A study of Mus musculus with 2 samples.

Results

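Ubiquitin conjugation and ligase genes were examined in a study of H3K27ac, an acetylated histone residue that marks active promoters and enhancers, in macrophages of the mouse colon. The genes were chosen by symbol: protein-coding RefSeq genes whose symbol begins with Ube2, or with Rnf, Cul, Fbxo or Siah followed by a digit, with 1 Rnf gene left out. This gave 167 of the 21883 protein-coding genes on the standard chromosomes, namely 37 Ube2, 82 Rnf, 8 Cul, 36 Fbxo and 4 Siah genes. The choice rests on names, so it takes in paralogs with expression limited to testis or muscle and leaves out ligases with other names. H3K27ac was profiled by CUT&Tag, in which an antibody directs tagging of the chromatin that carries the mark, and each deposited file lists the summits of called peaks. The WT group carried Lyz2-Cre alone, and the Tle4cKO group carried Lyz2-Cre with floxed Tle4 (Tle4f/f), a gene for a transcriptional corepressor. All mice were untreated C57BL/6 males aged 11.1 weeks, and Siglec-F(-), Ly6C(lo), CD64(+) cells of 4 mice were pooled per genotype, giving 1 library each. Lyz2-Cre is expressed in the myeloid lineage and not in macrophages alone, and recombination in the sorted cells cannot be read from peak summits.

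Ubiquitin is activated by an E1 enzyme, passed to an E2 conjugating enzyme (the Ube2 genes) and joined to a target protein with the help of an E3 ligase. Many E3s hold a RING finger, the zinc-binding domain that gives Rnf genes their name, and recruit an E2 charged with ubiquitin. Cullins are scaffolds that join a RING protein at one side to a substrate receptor at the other, and F-box proteins (Fbxo genes) are such receptors of the complex built on Cul1. Siah proteins are RING ligases related to the fly eye protein Sina. In macrophages, ubiquitin chains carry signals from Toll-like receptors and cytosolic RNA sensors to NF-kB and interferon genes, and they direct proteins to the proteasome.

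The WT list held 10474 summits and the Tle4cKO list 2350, a ratio of 4.46. Each summit has a score, the authors' −log10 of a significance value, p or q, which grows with depth, and the depth is unknown. Scores are therefore given side by side and were not compared between the lists, there was no test between genotypes, and a gene without a summit may carry signal under the calling threshold. A summit at a gene end lies no more than 1 kb from the first or the last annotated base of a gene. Of 12 macrophage markers, 4 had a WT gene-end summit (Fcgr1, which encodes CD64, Cd14, Cd68 and Cx3cr1) and 8 had a WT summit within 10 kb, beside 39.2% of all genes. Among the macrophage markers with none within 10 kb in either library were Itgam and Lyz2. In the Tle4cKO list, 0 of the 12 had a gene-end summit, and Ptprc alone had a summit within 10 kb. In that list 6.19% and 11.6% of all genes had such summits, so 12 markers are too few to show a loss. Of the markers of other cells, a WT gene-end summit was found at 2 of 6 for dendritic cells (Irf4 and Xcr1). It was also found at Cd4 of T cells, Cd79b of B cells and Kdr of endothelium. Markers of other cells with a WT summit within 10 kb numbered 6 of 6 for dendritic cells, 3 of 6 for B and plasma cells, 3 of 6 for fibroblasts and endothelium, 1 of 6 for T cells, 1 of 6 for neutrophils, 1 of 4 for eosinophils and 1 of 8 for epithelium. Of these other markers, 3 also had a Tle4cKO summit within 10 kb, namely Xcr1 of dendritic cells (4.06, at a gene end), Pecam1 of endothelium (6.23) and Jchain of plasma cells (2.10). The part of such cells in the results was not tested.

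The stretches of promoter that lead to the starts of 8 of these genes are shown to let the sequence be read beside the calls, and were chosen after the calls were seen. Each is the 250 bases before an annotated start, 5′ to 3′ on the gene's strand, from RefSeq on GRCm38.p6, and capitals mark matches to the motifs searched. Rnf4 and Rnf31 were marked in both libraries, with the highest WT gene-end scores of the Rnf genes so marked. The start summits of Rnf135 fell inside its stretch in both libraries, while those of the other marked genes lay outside theirs. Cul5 and Siah1b had the highest WT gene-end scores without a Tle4cKO summit, Siah1a is the paralog of Siah1b, and the WT summit of Ube2n lay 8 bases after its start. Rnf133, a gene known for testis expression, lacked a summit within 10 kb and is shown for contrast.
Rnf4 (chr5:34336000-34336249, plus strand): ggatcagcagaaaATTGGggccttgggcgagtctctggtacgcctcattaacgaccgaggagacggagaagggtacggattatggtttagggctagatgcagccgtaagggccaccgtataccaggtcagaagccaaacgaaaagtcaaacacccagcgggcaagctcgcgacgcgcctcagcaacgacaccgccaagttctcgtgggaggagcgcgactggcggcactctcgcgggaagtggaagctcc
Rnf31 (chr14:55591492-55591741, plus strand): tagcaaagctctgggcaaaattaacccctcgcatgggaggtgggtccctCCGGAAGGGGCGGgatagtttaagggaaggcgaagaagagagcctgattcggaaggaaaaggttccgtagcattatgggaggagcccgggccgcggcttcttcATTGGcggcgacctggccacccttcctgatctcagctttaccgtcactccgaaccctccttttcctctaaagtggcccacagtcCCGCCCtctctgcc
Rnf135 (chr11:80183619-80183868, plus strand): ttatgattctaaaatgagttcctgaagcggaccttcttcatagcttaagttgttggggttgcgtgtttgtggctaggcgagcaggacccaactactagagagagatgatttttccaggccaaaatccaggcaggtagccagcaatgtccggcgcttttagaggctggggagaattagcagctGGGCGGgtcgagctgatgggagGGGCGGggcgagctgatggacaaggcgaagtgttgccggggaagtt
Ube2n (chr10:95514912-95515161, plus strand): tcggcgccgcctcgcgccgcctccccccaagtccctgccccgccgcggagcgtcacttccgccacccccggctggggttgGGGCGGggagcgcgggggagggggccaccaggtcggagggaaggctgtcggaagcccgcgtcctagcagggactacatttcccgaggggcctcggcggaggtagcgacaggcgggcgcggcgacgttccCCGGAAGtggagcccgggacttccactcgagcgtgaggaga
Cul5 (chr9:53667508-53667757, minus strand): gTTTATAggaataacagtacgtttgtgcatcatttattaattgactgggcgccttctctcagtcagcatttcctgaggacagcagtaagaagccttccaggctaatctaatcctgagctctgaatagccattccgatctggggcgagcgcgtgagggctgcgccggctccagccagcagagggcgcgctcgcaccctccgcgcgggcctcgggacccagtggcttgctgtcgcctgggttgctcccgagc
Siah1a (chr8:86746007-86746256, minus strand): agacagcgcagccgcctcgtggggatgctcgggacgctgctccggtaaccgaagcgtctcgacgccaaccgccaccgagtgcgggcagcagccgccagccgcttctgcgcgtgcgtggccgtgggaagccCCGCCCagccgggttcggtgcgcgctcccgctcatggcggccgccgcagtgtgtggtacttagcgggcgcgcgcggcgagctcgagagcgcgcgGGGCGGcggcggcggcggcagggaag
Siah1b (chrX:164076494-164076743, minus strand): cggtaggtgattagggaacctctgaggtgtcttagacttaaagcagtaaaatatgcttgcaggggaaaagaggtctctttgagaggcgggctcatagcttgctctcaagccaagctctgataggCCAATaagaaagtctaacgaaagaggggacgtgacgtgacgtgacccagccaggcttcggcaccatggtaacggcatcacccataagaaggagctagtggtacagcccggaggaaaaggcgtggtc
Rnf133 (chr6:23650306-23650555, minus strand): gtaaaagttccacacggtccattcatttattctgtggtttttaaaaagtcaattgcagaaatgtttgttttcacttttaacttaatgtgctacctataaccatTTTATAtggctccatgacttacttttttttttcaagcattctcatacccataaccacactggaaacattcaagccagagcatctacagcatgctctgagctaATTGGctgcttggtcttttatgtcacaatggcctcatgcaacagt
The stretches hold 22 CpG dinucleotides at Rnf4, 14 at Rnf31, 11 at Rnf135, 32 at Ube2n, 17 at Cul5, 43 at Siah1a, 10 at Siah1b and 1 at Rnf133, against a median of 16 over the 131 of the 167 genes matched in the promoter table and 10 over all 17491 protein-coding genes with one. GGGCGG, the GC box bound by Sp and Klf factors, is matched at −68 and −46 from the Rnf135 start, at −194 and −14 from Rnf31, at −120 and −26 from Siah1a and at −170 from Ube2n, and in 42.7% of all such stretches. CCGGAAG, bound by ETS factors, is matched at −201 from the Rnf31 start, where it adjoins a GC box, and at −41 from Ube2n, and in 9.14% of all stretches. CCAAT, bound by NF-Y, is matched at −237 from Rnf4, at −98 from Rnf31, at −126 from Siah1b and at −45 from Rnf133, and in 36.5% of all stretches. TATAAA is matched at −249 from Cul5 and at −147 from Rnf133, and in 12.4% of all stretches. Both strands were searched, a position is that of the first base of the match with the start at 0, and no match overlaps one of another motif. The Rnf31 stretch runs to a start 29 bp inside the gene's outer end. The stretches of Siah1a and Siah1b have a GC content of 76.0% and 52.0%, and they share none of these motifs. In the 300-base windows used below, which run past the start, both genes hold GGGCGG.

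At gene ends, 55 of the 167 genes (32.9%, exact 95% interval 25.9 to 40.6%) were marked by a WT summit and 19 (11.4%, 6.99 to 17.2%) by a Tle4cKO summit. Over all protein-coding genes the shares were 22.6% in WT and 6.19% in Tle4cKO. The 14 genes with summits in both libraries made up 8.38% (against 5.6% of all genes), the 41 in WT alone 24.6% (against 17%) and the 5 in Tle4cKO alone 2.99% (0.979 to 6.85%, against 0.594%). The other 107 had no gene-end summit, as did 16803 of the 21883 protein-coding genes. These classes move with the length of the lists: with the WT list cut to its 2350 highest scores, 14 genes were marked in WT alone, 12 in Tle4cKO alone and 7 in both. Over all 21883 protein-coding genes the counts were then 923, 634 and 721, in the same order. Of the 55 genes marked in WT, 14 (25.5%, 14.7 to 39.0%) were also marked in Tle4cKO, beside 24.7% of all genes marked in WT, so this share lies at the background. Of the 19 genes marked in Tle4cKO, 14 (73.7%, 48.8 to 90.9%) were also marked in WT, beside 90.4% of all. The median highest score of the 55 WT genes was 5.15, against 5.19 for all genes marked there, and that of the 19 Tle4cKO genes was 3.35, against 4.15. The genes are longer than most, with a median length of 27.1 kb against 17.2 kb, and their promoters hold more CpG, as given below. The part of length and CpG content in these shares was not tested.

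**Figure D1:**
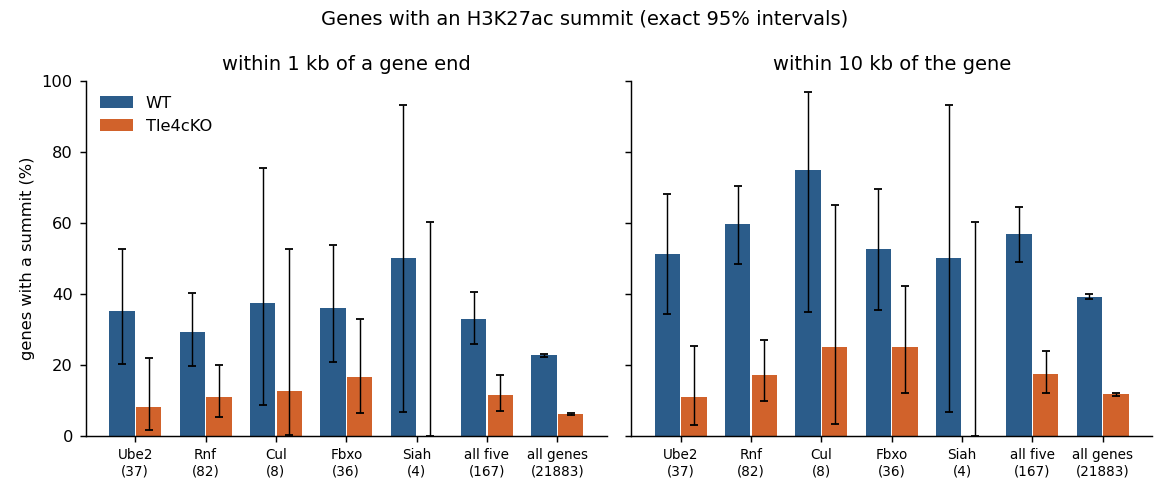
Share of genes with at least 1 H3K27ac summit within 1 kb of a gene end (left) and within 10 kb of the gene (right), by family, for all 5 families together and for all protein-coding genes, in WT (blue) and Tle4cKO (orange). Bars are percentages of the number of genes in brackets and lines are exact 95% intervals for counting error; at gene ends the families lie between 29.3% and 50% in WT and between 0% and 16.7% in Tle4cKO, with wide intervals for the 8 Cul and 4 Siah genes.

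By family, the WT share at gene ends was 35.1% for Ube2 (13 of 37), 29.3% for Rnf (24 of 82), 37.5% for Cul (3 of 8), 36.1% for Fbxo (13 of 36) and 50% for Siah (2 of 4). The intervals of these shares overlap. Of the WT-marked genes, 1 of 13 Ube2, 7 of 24 Rnf, 1 of 3 Cul, 5 of 13 Fbxo and 0 of 2 Siah genes were also marked in Tle4cKO. The Ube2 share (7.69%, 0.195 to 36%) and the Fbxo share (38.5%, 13.9 to 68.4%) have overlapping intervals that both hold the background of 24.7%. These counts do not separate the families.

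Among E2 genes, the marked set held enzymes for ubiquitin and for NEDD8. Ube2g1, an E2 that acts with cullin ligases (chromosome 11, 72607261 to 72686481), had the highest gene-end score of the family, 7.68 in WT with no summit in Tle4cKO. Ube2m, which loads NEDD8 onto cullins and thereby activates them, had WT gene-end scores of 7.13 and 5.81 and none in Tle4cKO. The score of 7.13 lay 113 bp after its start and that of 5.81 at its other end, beside the end of Chmp2a. Ube2k, an E2 that builds chains for the proteasome, scored 7.04 in WT alone, also at the end of Smim14. Ube2v2, an inactive E2 variant that pairs with Ube2n, scored 7.01 in WT alone. Ube2n itself, the E2 of the signalling chains used downstream of Toll-like receptors, had a lower WT score of 3.74, and Ube2v1 had no summit within 10 kb. Ube2l3, an E2 for HECT and RING-between-RING ligases, scored 6.44, and Ube2w, which modifies protein N-termini, scored 5.15, both in WT alone. The lower WT-only scores were 4.84 at Ube2e3, 4.83 at Ube2a, 3.53 at Ube2z, 3.06 at Ube2d3 and 2.89 at Ube2h. Ube2j2, a membrane-bound E2 of endoplasmic reticulum protein degradation, was the only Ube2 gene with gene-end summits in both libraries, 3.41 in WT and 2.04 in Tle4cKO. These Ube2j2 summits lay 711 bp apart, at +612 and −99 bp from the start, and so not at the same place.

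The E2 genes were also read by role, within 10 kb, where 39.2% of all genes were marked in WT and 11.6% in Tle4cKO. Of 7 E2s that carry ubiquitin-like proteins or work with a variant partner, 5 were marked in WT and 1 in Tle4cKO. Ube2l6, the E2 for the interferon-induced modifier ISG15, had none. Of 7 genes of the Ube2d and Ube2e group, 2 had a WT summit (Ube2d3 and Ube2e3) and 0 a Tle4cKO summit. Of 5 E2s of the cell cycle, chromatin and DNA repair, Ube2a and Ube2b, the homologs of yeast Rad6, had WT summits alone, Ube2s had a Tle4cKO summit alone, and Ube2c and Ube2t had none. The Ube2b summit (chromosome 11, position 52000605) had a WT score of 12.1, the highest at any Ube2 gene. It lay at −114 bp from an annotated internal start and within 1 kb of the end of Cdkl3, so the genes cannot be told apart there. Of 5 E2s tied to the endoplasmic reticulum or to proteasomal chains, Ube2g1 and Ube2k had WT summits alone, Ube2j2 had both, and Ube2g2 and Ube2j1 had none.

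The RING genes with summits in both libraries held several of innate signalling. Rnf4, a ligase that recognises SUMO chains (chromosome 5, 34336250 to 34353445), had the highest WT score of the 14 genes marked in both, 9.77, and a Tle4cKO score of 6.00, with summits 10 bp apart at −283 and −293 bp from its start. Rnf31, the catalytic subunit of the linear ubiquitin chain complex that acts on NF-kB (chromosome 14, 55591713 to 55603674), scored 8.50 in WT and 4.44 in Tle4cKO. Its summits lay 163 bp apart and within 1 kb of the end of Psme2, a proteasome activator gene. Rnf135, a ligase that activates the RNA sensor RIG-I, had summits at its start of 3.81 in WT and 3.35 in Tle4cKO, at −207 and −51 bp from the start, and a further WT summit of 5.09 at its other end. Rnf114 scored 3.48 in WT and 2.82 in Tle4cKO beside the end of Spata2. Rnf13, a membrane protein of endosomes and lysosomes, scored 6.67 in WT and 4.11 in Tle4cKO, with summits 386 bp apart on either side of its start. Rnf6 scored 5.88 and 4.06 with summits 3 bp apart. Rnf19a, a RING-between-RING ligase, scored 4.23 in WT and 5.00 in Tle4cKO, with summits 42 bp apart. Of the 14 genes, 13 had their summits within 500 bp of each other.

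By role, 3 of 7 RING genes of NF-kB and antiviral signalling had gene-end summits in both libraries, namely Rnf31, Rnf135 and Rnf114, and 4 had a WT gene-end summit, beside 22.6% of all genes. Rnf115 had a WT summit alone (5.43, also at the end of Polr3c), Rnf216 had WT summits alone within 10 kb (highest 4.07), and Rnf125 and Rnf128 had none. Over all genes 5.6% had both, but 7 genes are few and the genes were listed with results of these data known. Of 9 RING genes of chromatin and DNA damage, Rnf4 had both at gene ends and 4 had a WT summit alone, beside 5.6% and 17% of all genes. These were Rnf168, which ubiquitinates histones at DNA breaks (6.43), Rnf111, a SUMO-targeted ligase that acts in TGF-beta signalling (6.00), Rnf138 (3.17) and Rnf8, which acts before Rnf168 (2.81). Rnf169, a reader of the mark that Rnf168 makes, had summits 76 bp apart inside the gene, 6.92 in WT and 7.72 in Tle4cKO. Rnf2, the catalytic subunit of Polycomb complex PRC1, and Rnf20 and Rnf40, which ubiquitinate histone H2B, were without a summit within 10 kb. Of 13 genes of the endoplasmic reticulum, endosome and lysosome, Rnf13 had both and 3 had a WT gene-end summit alone, with Rnf103 at 4.90, Rnf185 at 4.70 and Rnf170 at 3.50, the last also at the end of Hook3. Rnf186 had a WT score of 7.30 in its flank, at the end of Tmco4. Of 8 RING-between-RING genes, 7 were marked within 10 kb in WT and 4 in Tle4cKO (Rnf19a, Rnf19b, Rnf31 and Rnf217), beside 39.2% and 11.6% of all genes, while 2 had gene-end summits. That list too was made with results of these data known.

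Of the 17 Rnf genes with a WT gene-end summit alone, Rnf214 had the highest score, 10.2, at a summit 174 bp after its start and within 1 kb of the end of Pcsk7. Rnf44 scored 6.64, Rnf215 6.04, and Rnf146, which targets proteins modified with poly(ADP-ribose), 5.13. The Rnf146 summit also lay at the end of Gm30698. Rnf34 scored 5.12, Rnf150 4.71, Rnf157 3.49 and Rnf11 2.21. No Tle4cKO summit lay at these gene ends.

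Among the 8 cullins, 3 had a WT gene-end summit, beside 22.6% of all genes, and 6 a WT summit within 10 kb, beside 39.2%. In Tle4cKO, 1 had a gene-end summit and 2 a summit within 10 kb, beside 6.19% and 11.6%. Cul5, the scaffold that works with SOCS-box receptors (chromosome 9, 53614581 to 53667507), scored 11.1 in WT, 173 bp after its start, and the closest Tle4cKO summit was 130137 bp away. Rnf7, the RING partner of Cul5, was without a summit within 10 kb. Cul2, the scaffold of the von Hippel-Lindau ligase, had gene-end summits 57 bp apart of 7.18 in WT and 5.44 in Tle4cKO. Cul4a, a scaffold that binds Ddb1, had WT summits of 3.10 and 4.27 at −466 and +286 bp from its start, the former inside Pcid2 and the latter inside Cul4a, both within 1 kb of an end of Pcid2. Its paralog Cul4b had a WT summit of 3.99 inside the gene. Cul1, the scaffold of F-box complexes, had summits 318 bp apart in both libraries, 4.23 in WT and 3.54 in Tle4cKO, at 530 and 212 bp after an annotated internal start and so outside the window at its outer ends. Cul3, the scaffold for BTB-domain receptors, had WT summits of 4.14 and 4.44 inside the gene. Cul7 and Cul9 had no summit within 10 kb.

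Of the 36 F-box genes, 8 (22.2%, 10.1 to 39.2%) were marked at an end in WT alone, beside 17% of all genes. In both libraries 5 (13.9%, 4.67 to 29.5%) were marked, beside 5.6%, and both intervals hold the share of all genes. Fbxo6, a receptor for misfolded glycoproteins (chromosome 4, 148145716 to 148152135), scored 8.80 in WT and 3.99 in Tle4cKO at summits 94 bp apart. Its paralogs Fbxo44 and Fbxo2 lie beside it, and the same summits are the only ones within 10 kb of either, so 3 genes share 1 summit per library. Fbxo30 (chromosome 10, 11281330 to 11305750) scored 8.50 in WT and 6.14 in Tle4cKO, the latter being the highest gene-end score of the 167 genes in that list. Fbxo47 scored 6.51 and 3.22 with summits 16 bp apart, and Fbxo3 scored 6.07 and 2.63 at an end that overlaps 4931422A03Rik. Fbxo4 scored 5.16 and 2.63. Among those in WT alone, Fbxo5, an inhibitor of the anaphase-promoting complex (chromosome 10, 5799158 to 5805465), scored 9.87. Fbxo22 scored 9.28, and its summit is also the only one within 10 kb of the E2 gene Ube2q2. Fbxo8 had WT summits of 8.98 and 4.76 at −452 and +239 bp from its start, shared with the end of Cep44. Fbxo34 scored 8.10, Fbxo38 5.03 (also at the end of Spink10), Fbxo36 4.29, Fbxo11, a receptor for the repressor Bcl6, 3.40, and Fbxo42, which binds p53, 2.38. Fbxo7, a mitophagy gene mutated in familial parkinsonism, had no summit at its outer ends but had summits of 9.74 in WT and 3.54 in Tle4cKO at −38 and +15 bp from an annotated internal start.

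Siah1b (chromosome X, 164070703 to 164076493) had the highest gene-end score of all 167 genes, 15.4 in WT at position 164076373, 120 bp after its start. It ranked 163 of the 10474 WT summits, and the closest Tle4cKO summit lay 343594 bp away. Its paralog Siah1a (chromosome 8, 86720454 to 86746006) had a WT score of 2.98, 579 bp after its start, and no Tle4cKO summit. Siah2 and Siah3 were without a summit within 10 kb. Near-identical paralogs can share reads, and how reads that match more than 1 place were treated is not given in the sources used here.

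**Figure D2:**
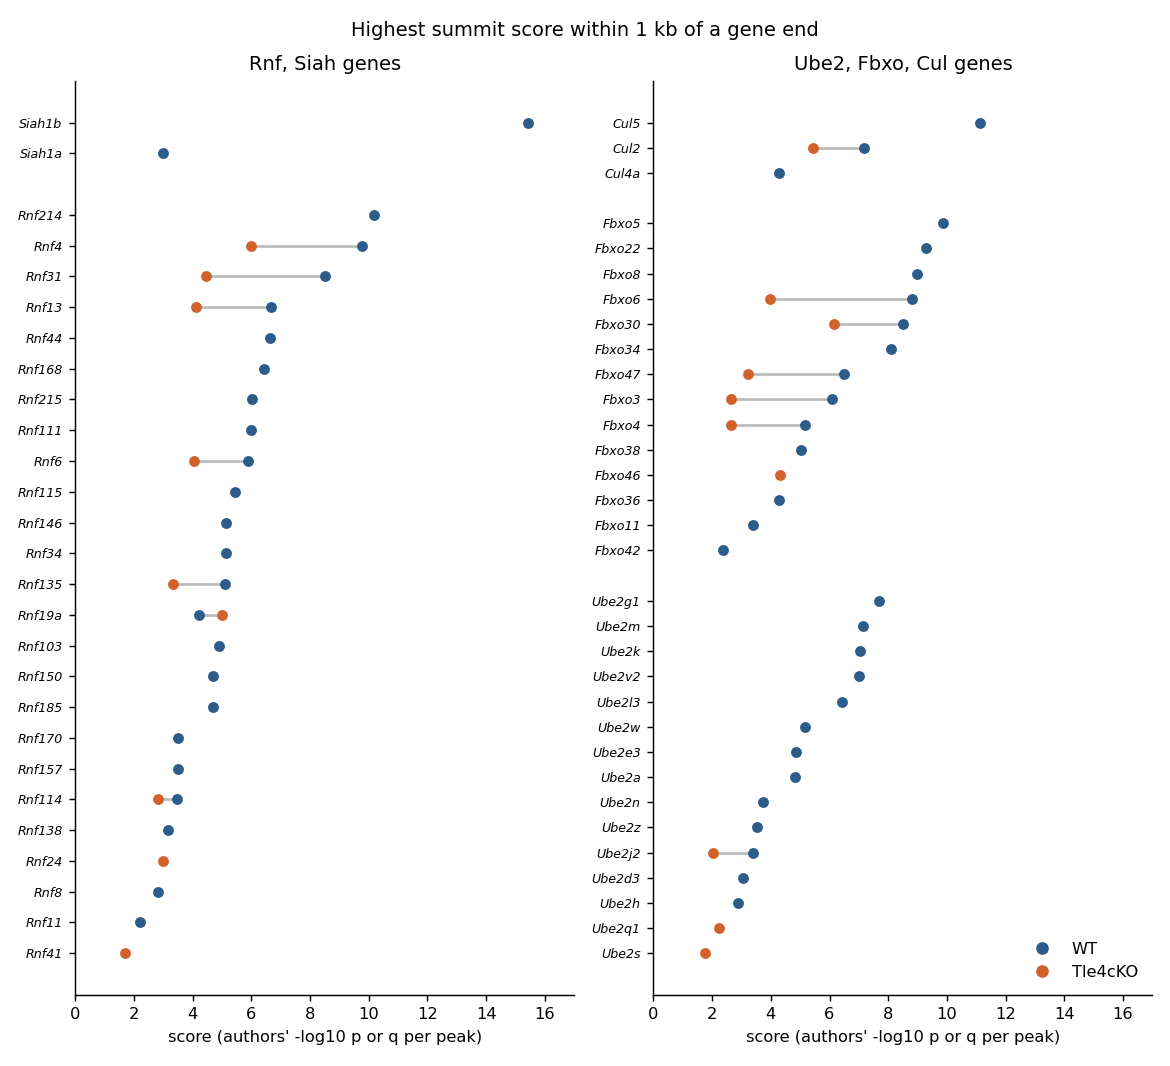
Highest summit score (authors' −log10 scale) within 1 kb of a gene end for 59 of the 60 genes with such a summit, in WT (blue) and Tle4cKO (orange). Grey lines join the 14 genes marked in both libraries; Siah1b stands furthest right at 15.4 in WT alone, and the 5 orange points without a line are the genes marked in Tle4cKO alone.

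The 5 genes with a gene-end summit in Tle4cKO alone had scores from 1.69 to 4.32, beside a median of 4.15 over all genes with a Tle4cKO gene-end summit. Fbxo46 (chromosome 7, 19119859 to 19138261) scored 4.32, 569 bp after its start, with the closest WT summit 107369 bp away. Rnf24 scored 2.98, 202 bp after its start, and had a WT summit of 4.90 elsewhere, 47776 bp after the start and inside the gene. Ube2q1 scored 2.24, Ube2s, which extends ubiquitin chains on targets of the anaphase-promoting complex, 1.76, and Rnf41, a ligase for growth factor receptors, 1.69. The last is the lowest gene-end score of the 167 genes in that list, and the lowest score in the whole Tle4cKO list is 1.37. The Rnf41 summit also lay within 1 kb of an end of Nabp2. Fbxo46, Ube2q1, Ube2s and Rnf41 had no WT summit within 10 kb.

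Within 10 kb of the gene, 95 of the 167 genes (56.9%, 49.0 to 64.5%) were marked in WT and 29 (17.4%, 11.9 to 24.0%) in Tle4cKO, beside 39.2% and 11.6% of all protein-coding genes. Of the 167, 25 had both, 70 WT alone, 4 Tle4cKO alone and 68 none, while 10.8%, 28.4% and 0.832% of all genes fell in the first 3 of these classes. In the last class were 13129 of the 21883 protein-coding genes. Of the 95 WT genes, 26.3% (17.8 to 36.4%) were also marked in Tle4cKO, beside 27.6% of all, and of the 29 Tle4cKO genes 86.2% (68.3 to 96.1%) were also marked in WT, beside 92.9%. The 95 genes rest on 131 distinct WT summits and the 29 on 28 distinct Tle4cKO summits. Of the 134 pairs of a gene and a WT summit, 61 lay at gene ends, 45 in the gene body and 28 in the flank. A flank summit often lay at the end of a neighbour, such as that of Rnf222 at the ribosomal protein gene Rpl26 (4.58 in WT and 3.64 in Tle4cKO).

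The highest score near any of the 167 genes lay inside Rnf150 (chromosome 8, 82863266 to 83091271), 16.4 in WT at position 83075922 and 8.61 in Tle4cKO at position 83075932. Rnf150 also had a WT gene-end summit of 4.71 and further WT summits of 3.67 and 3.45 in its body, none with a Tle4cKO partner within 500 bp. Rnf14, a RING-between-RING ligase of stalled ribosomes, had a WT summit of 9.92 inside the gene. Rnf121 had a WT summit of 8.22 lying at −187 bp from an annotated start and near the ends of Xndc1 and Xntrpc. Rnf213, a giant ligase with antimicrobial function, had a WT summit of 5.75 in its body and a further WT summit of 7.89 at the end of its neighbour Endov. Rnf19b had summits 457 bp apart inside the gene, 2.36 in WT and 5.10 in Tle4cKO, and Rnf217 had summits 676 bp apart of 3.13 and 2.69.

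Gene-end summits lie within 1 kb of an outer end by definition, so their nearness to an end is not a result. The end at which they lay, and the side of the start, are described. Strand was known for the 131 genes in the promoter table, and 44 of their 46 WT gene-end summits lay nearer the start than the other end, as did 15 of 15 in Tle4cKO. Over all protein-coding genes these shares were 95% and 97.0%. Of the 44 WT summits, 31 lay downstream of the nearest annotated start and 13 upstream, with a median of 184 bp downstream, while over all genes 58.8% lay downstream with a median of 90 bp. In Tle4cKO, 8 lay downstream and 7 upstream. Cul4a, Fbxo8 and Rnf103 had WT summits on both sides of the start. A window around annotated starts, internal ones included, added 7 genes in WT (Cul1, Fbxo7, Rnf121, Rnf123, Rnf180, Ube2b and Ube2f) and 2 in Tle4cKO (Cul1 and Fbxo7) that the outer ends had missed. Of the 61 distinct WT gene-end summits, 14 (23.0%) also lay within 1 kb of another gene's end, beside 18.1% of all WT gene-end summits, and for these the marked gene cannot be told apart.

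**Figure D3:**
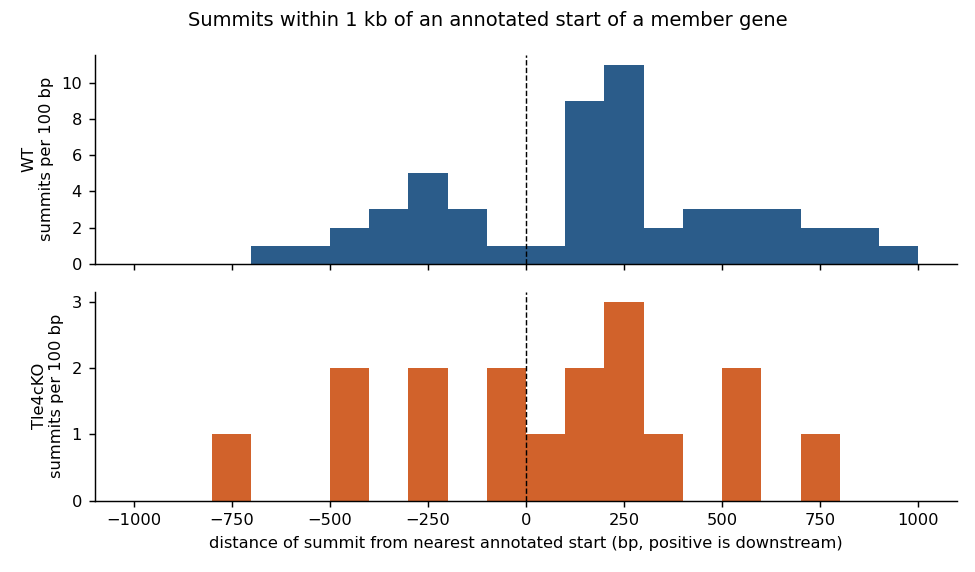
Number of summits per 100 bp by their distance from the nearest annotated start of the gene (bp, positive downstream), in WT (top) and Tle4cKO (bottom), for summits within 1 kb of a start. WT summits rise on both sides of the start with few at it, and the most lie between 100 and 300 bp downstream.

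The WT genes were then split by their WT score, to give the share with a Tle4cKO summit at each level. Among WT gene-end genes scoring under 3, 0 of 6 were also marked in Tle4cKO, then 3 of 17 from 3 to 5, 6 of 16 from 5 to 7, 4 of 10 from 7 to 9, and 1 of 6 at 9 and over. Over all genes the shares were 7.02%, 12.8%, 25.7%, 33.3% and 61.4%. In the highest bin Rnf4 was marked in both, while Siah1b, Cul5, Rnf214, Fbxo5 and Fbxo22 were marked in WT alone. The interval of that 16.7% runs from 0.421 to 64.1% and holds the background, so 6 genes do not show a departure from it. The 14 genes marked in both had a median WT score of 6.29 and the 41 in WT alone of 5.03, against 7.07 and 4.75 over all genes. Of the 61 WT gene-end summits, 13 (21.3%, 11.9 to 33.7%) had a Tle4cKO summit within 500 bp, beside 22.6% of all WT gene-end summits.

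**Figure D4:**
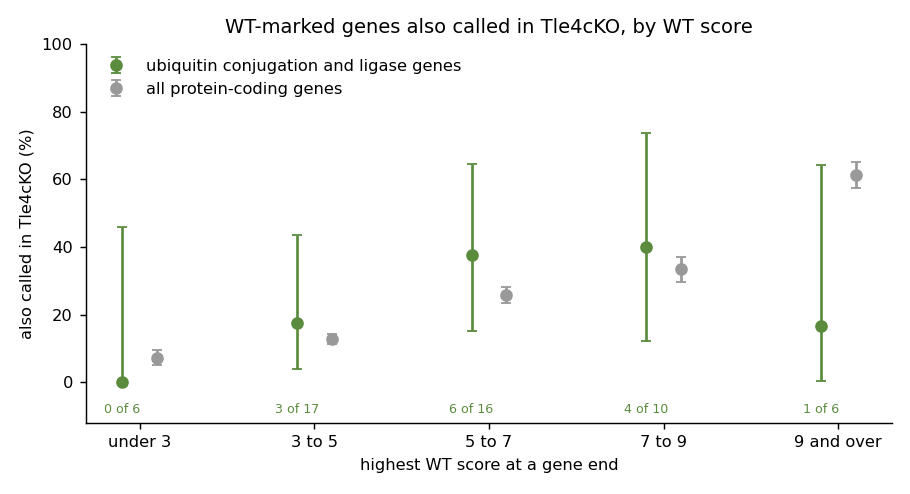
Share of genes with a WT gene-end summit that also had a Tle4cKO gene-end summit, by the highest WT score at the gene, for the ubiquitin conjugation and ligase genes (green) and all protein-coding genes (grey). Lines are exact 95% intervals and the counts are printed under each green point; the green intervals hold the grey points in each bin.

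The CpG content and motifs of the promoters are given by class as a description. The CpG ratio, observed over expected CpG in the 300 bases around the start, had a median of 0.845 in the 41 genes with a WT gene-end summit and a promoter entry, which was 0.849 in the 31 marked in WT alone and 0.711 in the 10 marked in both. It was 0.748 in the 85 with no gene-end summit and 0.742 in the 50 with no summit within 10 kb. The median of the genes marked in both thus lay under that of the unmarked genes, over 10 genes only. Over all genes the medians were 0.803 with a WT gene-end summit, 0.800 in WT alone, 0.817 in both, 0.431 with no gene-end summit and 0.358 with no summit within 10 kb. A ratio under 0.5 was found in 4 of the 41 marked (9.76%) and 16 of the 50 unmarked genes (32%). Over all genes of these 2 classes the shares were 14.9% and 59.7%. Among the lowest were Rnf148 (0), Rnf20 (0.0784), Rnf133 (0.104) and Fbxo40, a muscle F-box gene (0.128). GGGCGG was found in 78.0% of the 41 and 52.0% of the 50, against 46.3% of all promoters. By class it was in 27 of the 31 genes marked in WT alone (87.1%) and 5 of the 10 marked in both, the latter share no higher than in unmarked genes. CCGGAAG was found in 24.4% of the 41 and 8% of the 50, against 11.9% of all promoters, with 5 of the 31 and 5 of the 10. The same motifs were found in 65.3% and 23.4% of all promoters with a WT gene-end summit, and in 35.9% and 6.99% of those with no summit within 10 kb. TGANTCA, the AP-1 motif, was found in 1 of the 41 (7.03% of all promoters), GAGGAAGT, bound by PU.1, in 0 of the 41 (3.14%), and an NF-kB motif in 0 (0.389%). These are matches of letters in a window and not bound sites.

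**Figure D5:**
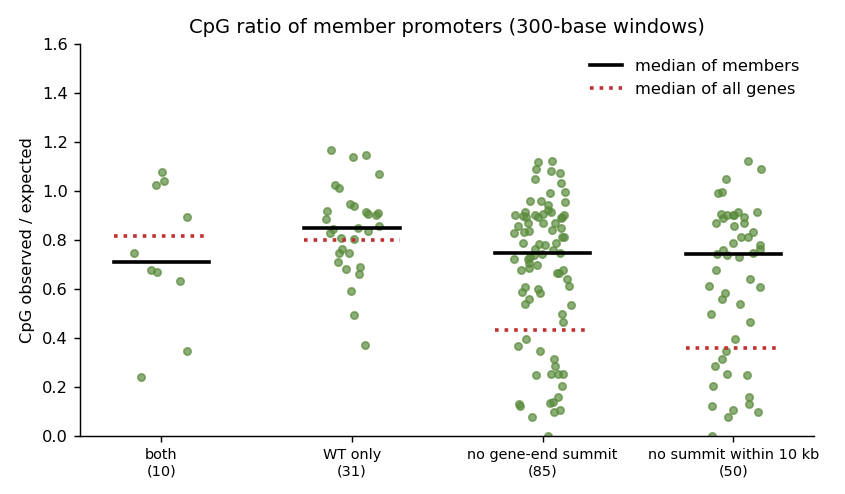
CpG ratio (observed over expected) of the 300-base promoter windows of the ubiquitin conjugation and ligase genes, 1 point per gene, by gene-end class and for genes without a summit within 10 kb, which are also part of the class before. Black lines are medians of these genes and red dotted lines medians of all protein-coding genes in the class; unmarked genes lie at a median of 0.742 against 0.358 for all.

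Other genes of the pathway were counted from lists, which were made with earlier results of these data known. Over all genes, 17% had a WT gene-end summit alone and 5.6% had both. Of 10 E1 genes and relatives, 6 had a WT gene-end summit, beside 22.6% of all genes. In Tle4cKO, 0 had a summit at the ends or within 10 kb, beside 6.19% and 11.6% of all genes. Mocs3 scored highest at 8.30, and Uba1, the main ubiquitin E1, had a WT summit of 3.02 within 10 kb. Of 12 ubiquitin and ubiquitin-like genes, 4 had a WT gene-end summit alone and 2 had both, Ufm1 (11.5 in WT and 4.50 in Tle4cKO) and Rps27a, a ubiquitin fusion gene (8.56 and 3.10). Nedd8 scored 8.22 in WT alone. Of 25 cullin partners and regulators, 10 had a WT gene-end summit alone and 5 had both. The latter were Dcun1d3 and Dcun1d2, which promote cullin neddylation (10.6 and 4.38, 8.56 and 4.21), Glmn, an inhibitor of Rbx1 (9.10 and 4.69), the F-box gene Fbxw11 (7.25 and 3.85) and Cand1, which exchanges F-box proteins (2.80 and 3.84). Rbx1 scored 6.43 in WT alone.

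Of a list of 39 other ligases, 15 had a WT gene-end summit alone and 6 had both, beside 17% and 5.6% of all genes. The list also holds Vcpip1, a deubiquitinase counted among the 15. Ube3a, the ligase of Angelman syndrome, scored 12.0 in WT and 6.29 in Tle4cKO, Cblb, a brake on immune receptors, 11.3 and 7.96, and Traf6, the ligase downstream of Toll-like receptors, 5.22 and 5.77. Rbck1, a partner of Rnf31, scored 3.73 and 2.93. Syvn1, a ligase of the endoplasmic reticulum, scored 11.9 in WT alone. Of 81 genes listed as deubiquitinases by symbol, among them the Rab GTPase regulator Usp6nl with no summit, 19 had a WT gene-end summit alone and 10 had both, led by Usp47 (12.7 and 7.56), Usp14, a proteasome-bound enzyme (12.6 and 3.82), and Usp48 (12.1 and 4.96). Of 42 F-box genes of the Fbxl and Fbxw classes, 7 were marked at an end in WT alone, 2 in both libraries, and Fbxl19 in Tle4cKO alone (3.00). The WT gene-end shares were 60.0% for the E1 genes and for the cullin partners, 53.8% for the list of other ligases, 50% for the ubiquitin and ubiquitin-like genes, 35.8% for the deubiquitinases and 21.4% for these F-box genes, beside 22.6% for all genes.

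Of the 167 genes, 68 were left without a summit within 10 kb, beside 13129 of all 21883 protein-coding genes. The 68 were 32 of 82 Rnf, 16 of 37 Ube2, 16 of 36 Fbxo, 2 of 8 Cul and 2 of 4 Siah genes. They included genes known for expression in testis (Rnf133, Rnf148, Rnf17, Ube2u and Fbxo43), in muscle (Fbxo32 and Fbxo40) and in brain (Fbxo41 and Rnf112). They also held genes with general roles, such as Rnf2, Rnf20, Rnf40, Rnf7, Ube2d1, Ube2d2a, Ube2e1 and Cul7. These names were picked after the values were seen, and genes of limited expression were not counted among the marked genes. The names therefore do not show that such genes are mostly unmarked. A gene in this class had no called summit, which does not show that it lacks the mark.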

How the data were processed

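H3K27ac was measured in 2 libraries, 1 WT and 1 Tle4cKO, each of cells pooled from 4 mice. Per the submitters' processing notes, cutadapt 1.14 and Bowtie2 2.2.5 were used with build mm10; the peak caller, control and depth are, so far as the sources used here go, not given. The authors deposited 1 summit list per library with a score, read here as the −log10 of a p-value or q-value because the layout is that of a summit file and the lowest scores lie just above 1.30. Whether it is the p- or the q-value is not stated.

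Mitochondrial summits (4 in WT, 2 in Tle4cKO) were dropped. Genes, their outer ends, starts and promoter sequences came from RefSeq on GRCm38.p6, the assembly behind mm10. A gene counted as marked with a summit within 1 kb of either end, or within 10 kb of the gene, and summits within 500 bp counted as shared. Intervals are exact Clopper-Pearson 95% intervals for counting error only. With 1 library per genotype no test was run. Values were computed with Python 3.11.15, pandas 2.3.3 and scipy 1.17.1. The finding of gene-end summits was tested on simulated summits, and the other steps were not tested this way. The genes, 8 role lists and 6 pathway lists were chosen with earlier results of these data known. Named genes are all Cul and Siah genes, those marked in both libraries or in Tle4cKO alone, the 15 highest WT-only genes and the 2 highest of each family, the highest within 10 kb and the highest 2 or 3 per list and class; all others named were added after their values were seen. The promoters printed were also chosen then. Some genes are not reported here. Alternatives were other windows, score minimums, list lengths, chromosomes, annotated starts and the removal of summits that other genes share.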

Additional observations from a re-analysis of the deposited data

How the results depend on the processing

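The counts held within 1.5 times, and the shares within their intervals, in 40 of 64 alternative values over 9 results, among them all at other gene-end windows, other gene windows, on autosomes only and around annotated starts. Around annotated starts the counts were 48 in WT, 17 in Tle4cKO and 12 in both. They cover only the 131 genes in the promoter table, while the main counts cover 167. No alternative gave more Tle4cKO-marked than WT-marked genes at gene ends. The WT list was the longer one in every setting but that of equal lengths, so this order does not compare the genotypes. With scores under 5 dropped, gene-end counts were 32 in WT, 3 in Tle4cKO and 3 in both (9.38% of WT genes, beside 13.8% of all genes), counts within 10 kb were 49, 7 and 6 (12.2%), and 3 WT gene-end summits had a partner. With scores under 10 dropped they were 3, 0 and 0 (0%, beside 5.16% of all genes) at gene ends and 6, 0 and 0 (0%) within 10 kb. With the WT list cut to the 2350 highest scores, 21 genes were marked in WT, 19 in Tle4cKO and 7 in both at gene ends, and 36, 29 and 13 within 10 kb; at gene ends 14 were then in WT alone and 12 in Tle4cKO alone (923 and 634 over all genes), and 33.3% of the WT gene-end genes were then also marked in Tle4cKO, beside 43.9% of all genes. Leaving out summits within 10 kb of another gene gave 52, 15 and 13 within 10 kb. Fewer summits are kept by construction in each of these settings. The score minimums were the same in both lists although scores grow with depth, so the counts under them do not compare the libraries. No paired analysis was possible because each genotype has 1 library. Depth is unknown, so no uncalled gene can be said to lack the mark.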
